A study of Mus musculus with 9 samples.

Results

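A set of 10 genes that mark or regulate the stem cells of the intestinal crypt was followed by RNA-seq through mouse gut organoids: Lgr5, Ascl2, Olfm4, Smoc2, Tnfrsf19, Cdca7, Prom1, Lrig1, Bmi1 and Msi1. These 10 members were taken by gene symbol from the 23955 rows of the count table. The study compared organoids, miniature epithelial cultures grown from crypt cells in gel, in 3 groups of 3 samples. MIN organoids came from the normal gut epithelium next to the tumors of APCmin/+ mice, Adenoma organoids came from adenomatous polyps of such mice, and Sulindac organoids were polyp organoids treated with the non-steroidal anti-inflammatory drug (NSAID) sulindac. APCmin/+ mice carry 1 mutated copy of Apc, the brake on Wnt signaling, so the MIN reference is itself heterozygous and no wild-type sample was analysed here. All groups were grown in medium with Noggin, EGF, bFGF, R-spondin1 and B27. The labels give neither a dose nor a duration of sulindac, nor age, sex, gut segment or the animal behind each sample. The design text calls the samples biological replicates, but nothing says that they are separate animals or lines, so the p-values below measure the spread between these cultures.

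The intestinal epithelium is renewed from crypt base columnar cells, which divide between Paneth cells and are kept in the stem cell state by Wnt and Notch signals. R-spondins, ligands of Lgr5 and its relatives, raise Wnt signaling by sparing Wnt receptors from degradation. Apc loss switches on Wnt target genes without the ligand, and several crypt stem cell genes, Lgr5, Ascl2 and Tnfrsf19 among them, are known Wnt targets. Bmi1, Lrig1 and Msi1 have also been used to mark slower or broader stem cell populations above the crypt base.

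Depth was 30881206 to 48412477 counts per sample, and the values below are counts scaled to a common library size (CPM) after TMM normalization, a correction for differences in RNA composition between libraries. A floor of 3 counts corresponded to 0.0641 to 0.1 CPM. Changes are log2 fold changes from edgeR's quasi-likelihood test, with p-values adjusted over all genes tested, and a gene is said to have risen or fallen only where its adjusted p was under 1%. The samples were epithelial: the keratin and adhesion genes Epcam, Cdh1, Krt8, Krt18 and the gut factor Cdx2 summed to 2861 to 6077 CPM, 6 leukocyte genes to at most 0.608 CPM and 10 stromal and endothelial genes to at most 4.54 CPM, with Col1a2, Col3a1, Dcn and Itgax at 0 in every sample. In such bulk cultures, fewer stem cells and less RNA per stem cell cannot be told apart.

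RefSeq start windows, from 250 bases before to 50 bases after a transcription start (mouse build GRCm38.p6), were at hand for 7 of the 10 members, in 9 windows. The 4 windows below belong to 4 members chosen for their changes. Tnfrsf19 rose most in adenoma organoids, Olfm4 fell most, Ascl2 is the stem cell transcription factor among those that rose, and Prom1 rose with sulindac. Tnfrsf19 and Prom1 had 2 windows each, of which only the window with a match to the letters below is shown. Capitals mark matches on either strand to CTTTGA, the core bound by the Wnt effectors TCF and LEF, here with the longer form CTTTGAT where it is present, and to CAGCTG, an E-box of the kind bound by basic helix-loop-helix factors such as Ascl2.

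Tnfrsf19, chr14:61037938-61038237 (-): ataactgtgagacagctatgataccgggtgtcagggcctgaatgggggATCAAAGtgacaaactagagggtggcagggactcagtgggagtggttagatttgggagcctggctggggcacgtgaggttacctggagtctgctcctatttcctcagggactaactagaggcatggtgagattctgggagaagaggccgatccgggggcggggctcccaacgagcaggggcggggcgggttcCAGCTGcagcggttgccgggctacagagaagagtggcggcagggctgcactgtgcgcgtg
Olfm4, chr14:80000052-80000351 (+): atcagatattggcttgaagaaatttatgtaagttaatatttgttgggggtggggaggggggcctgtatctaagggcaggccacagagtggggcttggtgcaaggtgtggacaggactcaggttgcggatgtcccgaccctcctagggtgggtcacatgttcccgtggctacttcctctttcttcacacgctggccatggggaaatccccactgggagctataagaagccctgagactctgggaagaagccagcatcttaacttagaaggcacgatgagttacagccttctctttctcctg
Ascl2, chr7:142969215-142969514 (-): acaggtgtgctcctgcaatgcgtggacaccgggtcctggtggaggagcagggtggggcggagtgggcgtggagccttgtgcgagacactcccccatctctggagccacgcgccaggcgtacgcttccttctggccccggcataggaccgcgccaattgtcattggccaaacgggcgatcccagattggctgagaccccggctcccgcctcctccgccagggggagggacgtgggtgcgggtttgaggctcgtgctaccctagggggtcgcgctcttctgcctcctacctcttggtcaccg
Prom1, chr5:44094719-44095018 (-): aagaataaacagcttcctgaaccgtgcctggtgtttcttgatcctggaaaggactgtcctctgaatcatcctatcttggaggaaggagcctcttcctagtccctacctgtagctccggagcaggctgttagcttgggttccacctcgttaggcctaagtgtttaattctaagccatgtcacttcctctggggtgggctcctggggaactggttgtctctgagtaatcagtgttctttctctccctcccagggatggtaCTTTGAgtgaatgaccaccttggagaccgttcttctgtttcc

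The TCF/LEF core was found in 2 of the 9 member windows, and it is present in 16% of all 32851 windows of this length. In Tnfrsf19, the core began at position -201 from the start as the longer form, found in 3.73% of windows, and an E-box began at position -10, found in 16.3% of windows. In Prom1 the core began at position 9. These letters were not in the windows of Ascl2, Olfm4, Cdca7, Lrig1 and Bmi1, nor in the other window of Tnfrsf19 and of Prom1, which says only that they are not in these stretches. Lgr5, Smoc2 and Msi1 had no window.

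The stem cell genes did not move together. In Adenoma against MIN organoids, Tnfrsf19, Ascl2 and Bmi1 rose, Olfm4, Lgr5, Cdca7 and Msi1 fell, and Smoc2, Prom1 and Lrig1 did not pass the test. That is 3 higher (30%) and 4 lower (40%) of the 10 members, where 18.5% of the 13744 genes tested were called higher and 20.1% lower (38.7% in either direction). The median log2 change of the members was -0.28 and that of all genes -0.01. In Sulindac against Adenoma organoids, Prom1 rose and Msi1 fell, that is 1 higher and 1 lower of the 9 members tested, against 8.32% of 12962 genes called higher and 9.1% called lower (17.4% in either direction). At an unadjusted p under 0.05, 6 of the 9 were lower and 1 higher. The share of all genes at this looser threshold was not counted, so the shares above are no measure for it. At an edgeR adjusted p under 5%, 2374 of the 12962 genes were lower and 2034 higher. The members' median was -0.47 and that of all genes -0.01. Against MIN, the Sulindac organoids had 3 members higher (Tnfrsf19, Bmi1 and Prom1) and 4 lower (Olfm4, Lgr5, Cdca7 and Msi1), against 23% and 26.8% of 13551 genes (49.7% in either direction), with a members' median of -0.83 and -0.03 over all genes. The shares called among members in Sulindac against Adenoma lay near those of all genes.

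**Figure D1:**
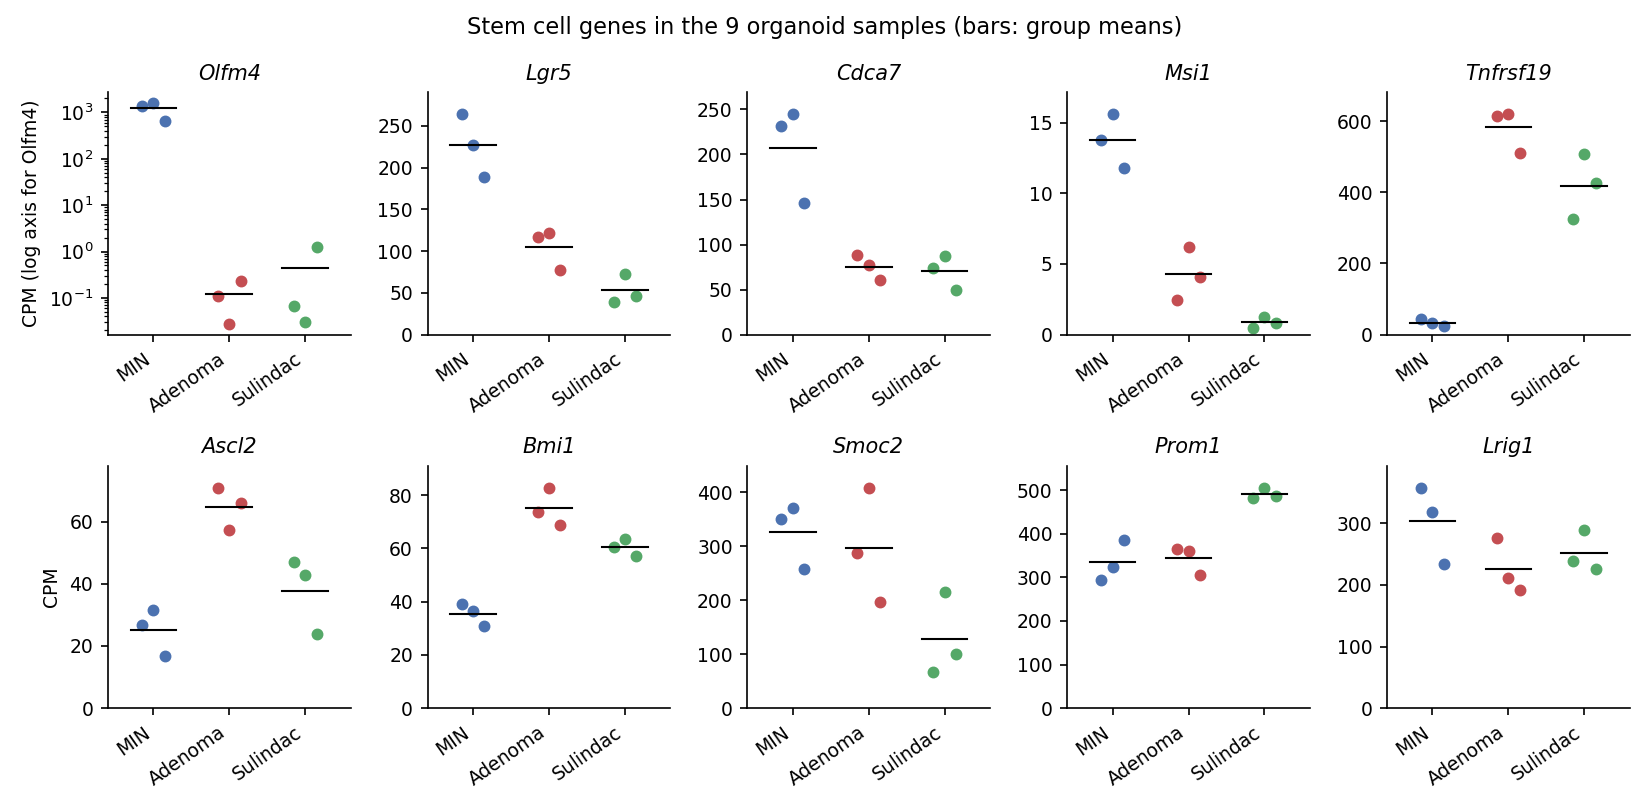
CPM of each stem cell gene (y axis, linear from 0, logarithmic for Olfm4) in the 3 MIN, 3 Adenoma and 3 Sulindac samples (points), with the arithmetic group mean as a bar. Olfm4 goes from 657.7 CPM or more in MIN to 1.25 CPM or less in the other samples, Tnfrsf19 and Bmi1 are higher in every Adenoma than in every MIN sample, and Prom1 is higher in every Sulindac sample than in all others.

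Lgr5 is the R-spondin receptor that defines crypt base columnar cells. It stood at 264.2, 226.7 and 188.7 CPM in the MIN samples, at 117.5, 122.0 and 77 CPM in the Adenoma samples and at 39.2, 73.1 and 46.5 CPM in the Sulindac samples. No group overlapped another: every Adenoma value was below every MIN value, and every Sulindac value was below every Adenoma value. Lgr5 fell by 1.10 on the log2 scale in Adenoma against MIN (SE 0.20, edgeR adjusted p = 0.00149), from a mean of 226.5 ± 37.7 CPM to 105.5 ± 24.8 CPM (SD, n = 3 each). From Adenoma to Sulindac, where the mean was 52.9 ± 17.9 CPM (SD, n = 3), the fitted log2 change was -0.99 (95% interval -1.56 to -0.43), which missed the 1% threshold with an edgeR adjusted p of 0.016. Without Sulindac 2, the sample with the highest Lgr5 of its group, this change was -1.28 and passed with an edgeR adjusted p of 0.00898. Against MIN, the Sulindac samples were lower by -2.10 (SE 0.23, edgeR adjusted p = 9.31e-05).

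Tnfrsf19, also called Troy, is a receptor of the tumor necrosis factor family that Wnt signaling induces in stem cells. Its levels were 44.1, 32.4 and 24.3 CPM in MIN, 615.6, 620.2 and 511.7 CPM in Adenoma and 324.1, 506.8 and 425.1 CPM in Sulindac. The lowest Adenoma value was far above the highest MIN value, and all Sulindac values lay between those groups. The rise from MIN to Adenoma was 4.12 on the log2 scale (SE 0.23, edgeR adjusted p = 1.72e-06), a mean of 582.5 against 33.6 CPM or 17.3-fold, the largest rise among the members. Adenoma and Sulindac samples did not overlap, but the fitted change of -0.47 (95% interval -0.85 to -0.10) did not pass, with an edgeR adjusted p of 0.056. Over MIN, the Sulindac samples were higher by 3.63 (SE 0.25, edgeR adjusted p = 6.82e-06), or 12.5-fold.

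Prom1 encodes CD133, a membrane protein of stem and progenitor cells. MIN samples held 293.5, 324.2 and 386.9 CPM and Adenoma samples 365.7, 361.5 and 305.3 CPM, and these ranges overlapped. The fitted log2 change between them was 0.04 with a 95% interval of -0.27 to 0.36. In the Sulindac samples Prom1 stood at 483.2, 506.2 and 487.8 CPM, all above every untreated sample. It rose by 0.52 over Adenoma (SE 0.11, edgeR adjusted p = 0.00768), or 1.43-fold, and by 0.55 over MIN (SE 0.11, edgeR adjusted p = 0.0022). The first of these calls was narrow. Leaving out Adenoma 1, Adenoma 2, Sulindac 1, Sulindac 2 or Sulindac 3 kept the size between 0.52 and 0.57 but gave edgeR adjusted p-values of 0.0145, 0.017, 0.0293, 0.0259 and 0.0328, with scaling by library size alone the change was 0.35 (edgeR adjusted p = 0.0428), and in a fit blocked by replicate number it was 0.53 (edgeR adjusted p = 0.0166). Without MIN 2, the change over MIN was 0.53 with an edgeR adjusted p of 0.0113.

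Lrig1, a membrane protein that restrains EGF receptor signaling, was measured at 358.1, 317.7 and 234.5 CPM in MIN, 276.8, 210.7 and 191.3 CPM in Adenoma and 238.8, 288.6 and 226.0 CPM in Sulindac. All 3 groups overlapped. Fitted changes were -0.42 (95% interval -0.85 to 0.01) in Adenoma over MIN, 0.15 (-0.20 to 0.51) in Sulindac over Adenoma and -0.28 (-0.65 to 0.09) in Sulindac over MIN, none of which passed. Without MIN 3, the sample with the lowest Lrig1 of its group, the last of these was -0.44 and passed (edgeR adjusted p = 0.00864).

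Olfm4, a secreted glycoprotein and among the most abundant stem cell transcripts of the mouse small intestine, nearly disappeared. The MIN samples held 1407, 1595 and 657.7 CPM, from 24149 to 74634 counts. The Adenoma samples held 4, 1 and 8 counts, that is 0.112, 0.0279 and 0.231 CPM. The Sulindac samples held 2, 1 and 43 counts, that is 0.0667, 0.0306 and 1.25 CPM. Every MIN sample was thus far above every other sample, and Sulindac 3 stood apart from the other treated samples. The pooled rate in MIN was 10246 times that in Adenoma (95% exact interval 5992 to 19244, counting error only) and 2652 times that in Sulindac (1988 to 3623), and edgeR's adjusted p-values for these falls were 4.62e-07 and 8.63e-06. Olfm4 was not tested between Adenoma and Sulindac, because too few counts were left after the filter on low counts. In Sulindac 3, other transcripts abundant in MIN were also above the other treated samples: the lipid transport gene Apoa4 was at 39 counts against 2 and 2, the fatty acid binding gene Fabp1 at 21 against 6 and 3, and Xist at 59 against 17 and 11. The part of these traces in the Olfm4 value of Sulindac 3 was not tested.

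Smoc2 encodes a secreted calcium-binding protein of the extracellular matrix. Its values were 349.7, 370.9 and 257.9 CPM in MIN, 286.4, 408.3 and 196.6 CPM in Adenoma and 66, 215.8 and 99.5 CPM in Sulindac. MIN and Adenoma overlapped widely, with a fitted log2 change of -0.13 (95% interval -0.71 to 0.44). The Sulindac samples were all below the MIN samples, and Sulindac 2 reached into the Adenoma range. The fitted change was -1.23 (95% interval -2.17 to -0.29) over Adenoma, with an edgeR adjusted p of 0.0491, and -1.37 (-2.25 to -0.49) over MIN, with an edgeR adjusted p of 0.0138, and neither passed. Without Sulindac 2, the change over MIN was -1.97 and passed (edgeR adjusted p = 0.000651).

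Ascl2, a basic helix-loop-helix factor that sets the stem cell program downstream of Wnt, went the opposite way to Lgr5 in Adenoma against MIN. MIN samples held 26.9, 31.6 and 16.7 CPM and Adenoma samples 71, 57.2 and 66.1 CPM, with no overlap. The rise was 1.37 on the log2 scale (SE 0.22, edgeR adjusted p = 0.000785), or 2.58-fold. The Sulindac values of 46.9, 42.7 and 23.8 CPM were all below the Adenoma values and overlapped those of MIN. The fitted change was -0.77 (95% interval -1.28 to -0.26, edgeR adjusted p = 0.0291) from Adenoma to Sulindac and 0.58 (-0.09 to 1.26, edgeR adjusted p = 0.115) from MIN to Sulindac, so neither passed.

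Bmi1, a subunit of the Polycomb repressive complex PRC1, was at 39.1, 36.6 and 30.8 CPM in MIN, at 73.5, 82.8 and 68.8 CPM in Adenoma and at 60.6, 63.3 and 57 CPM in Sulindac. The 3 groups did not overlap. Bmi1 rose by 1.08 in Adenoma over MIN (SE 0.13, edgeR adjusted p = 0.000138), and by 0.76 in Sulindac over MIN (SE 0.11, edgeR adjusted p = 0.000305). The change of -0.31 from Adenoma to Sulindac (95% interval -0.55 to -0.07) did not pass, with an edgeR adjusted p of 0.0503. Of the 50-base stretches of Bmi1's transcripts, 16.7% also occur in another gene, nearly all in Gm5946, so its counts depend on how shared reads were assigned. For the other members this share was at most 5.1%.

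Cdca7, a Myc target that recruits the chromatin remodeler Hells, fell to about a common level in both adenoma groups. It was at 231.3, 244.9 and 145.7 CPM in MIN, 88.6, 77.5 and 60.3 CPM in Adenoma and 74.1, 87.6 and 49.5 CPM in Sulindac. The MIN samples lay above all others, and the Adenoma and Sulindac samples overlapped. The log2 change was -1.45 in Adenoma over MIN (SE 0.22, edgeR adjusted p = 0.00055) and -1.56 in Sulindac over MIN (SE 0.25, edgeR adjusted p = 0.000759). Between Adenoma and Sulindac it was -0.10, with a 95% interval of -0.58 to 0.39. Hells itself did not pass in any comparison, with group means of 85.8, 83.7 and 68.5 CPM.

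Msi1, an RNA-binding protein that controls translation in neural and gut progenitors, was the least abundant member in MIN and fell at both steps. Its levels were 13.8, 15.6 and 11.8 CPM in MIN, 2.47, 6.23 and 4.11 CPM in Adenoma and 0.5, 1.25 and 0.844 CPM in Sulindac, the last from 15, 41 and 29 counts. No group overlapped another. The log2 change was -1.68 in Adenoma over MIN (SE 0.31, edgeR adjusted p = 0.00176), -2.29 in Sulindac over Adenoma (SE 0.42, edgeR adjusted p = 0.00436) and -3.98 in Sulindac over MIN (SE 0.29, edgeR adjusted p = 6.36e-06). Without Adenoma 3, the first change was -1.66 with an edgeR adjusted p of 0.0121. The call in Sulindac over Adenoma was lost without Adenoma 2, Sulindac 1, Sulindac 2 or Sulindac 3, with edgeR adjusted p-values of 0.0129, 0.0179, 0.0102 and 0.0235 and log2 changes between -1.90 and -2.63.

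**Figure D2:**
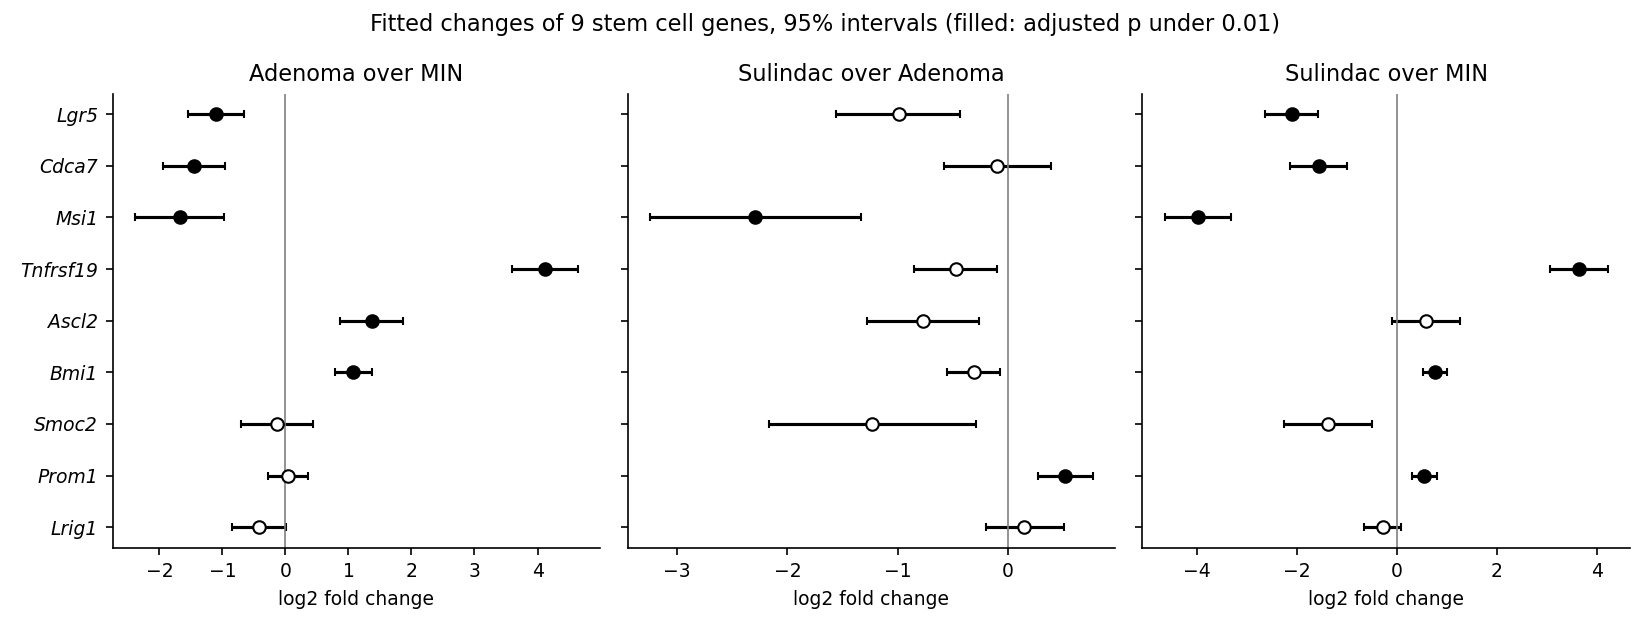
Fitted log2 fold changes (x axis) of 9 stem cell genes with 95% intervals in each comparison, filled where the edgeR adjusted p was under 0.01. Olfm4 is left out because its counts outside MIN were too few. Tnfrsf19 is the highest at 4.12 in Adenoma over MIN, and in Sulindac over Adenoma only Prom1 at 0.52 and Msi1 at -2.29 are filled.

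The order of the genes by level was rearranged between the groups. On the scale of CPM per kb of merged exon length, which allows levels of different genes to be compared, Olfm4 led in MIN with a mean of 420.6, and its lowest sample at 226.8 was above all samples of the next gene. It was followed by Smoc2 (107.3), Cdca7 (85.5), Prom1 (68.8), Lrig1 (61.2) and Lgr5 (48.1), each of which overlapped the next in range. Ascl2 (15.4) came below these and overlapped Bmi1 (9.6), which overlapped Tnfrsf19 (7.36), and Msi1 (4.38) was last in every sample. In Adenoma, Tnfrsf19 was first with 127.7, overlapping Smoc2 (97.7), while Lgr5 (22.4) overlapped Bmi1 (20.3) in the lower part of the order, below Ascl2 (39.9), and Olfm4 (0.0427) was last. In Sulindac, Prom1 led with 101.1 and overlapped Tnfrsf19 (91.7), and Lgr5 (11.2, highest sample 15.5) overlapped Bmi1 (16.3, lowest sample 15.4) at its edge, with Msi1 (0.276) and Olfm4 (0.155) at the end.

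Ratios of counts within a sample do not depend on scaling between samples, and 6 of them were computed after the values had been seen. The ratio of Tnfrsf19 to Lgr5 counts was 0.167, 0.143 and 0.129 in MIN, 5.24, 5.08 and 6.64 in Adenoma and 8.27, 6.93 and 9.14 in Sulindac. The ratio of Ascl2 to Lgr5 counts was 0.102, 0.139 and 0.0886 in MIN, 0.605, 0.469 and 0.858 in Adenoma and 1.2, 0.584 and 0.512 in Sulindac. Both ratios separated MIN from all other samples, while that of Ascl2 to Lgr5 overlapped between Adenoma and Sulindac. An exact permutation test of 3 against 3 samples cannot give a two-sided p below 0.1, so these ratios stand as descriptions.

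**Figure D3:**
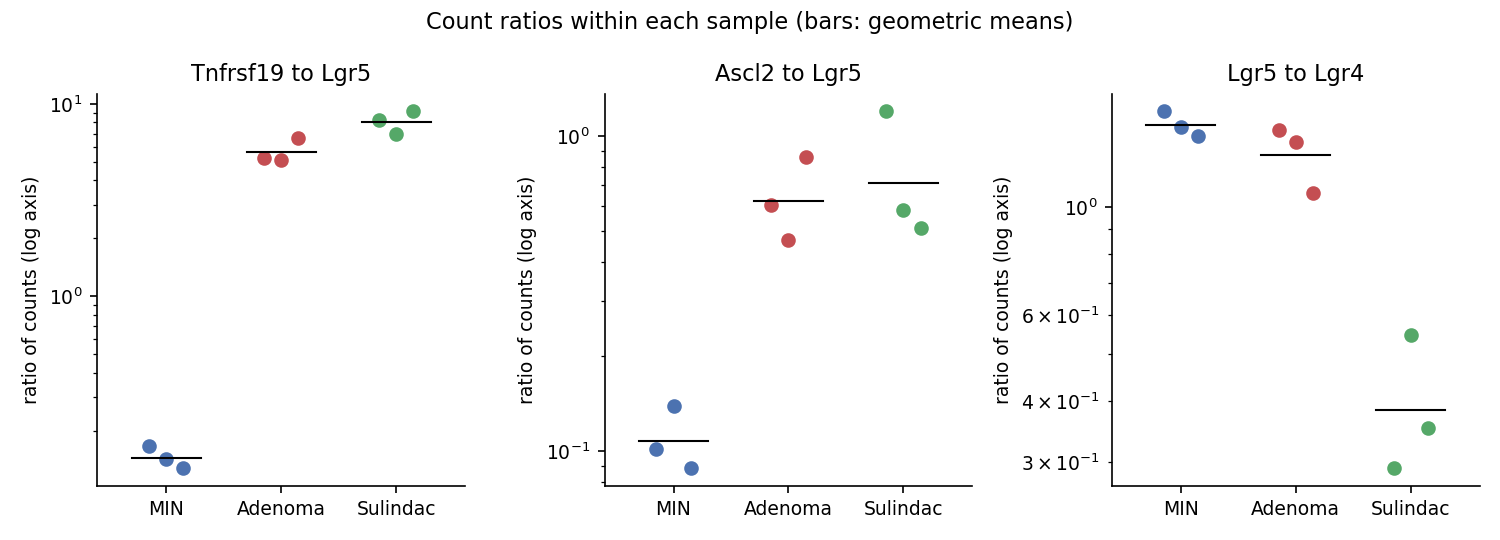
Count ratios within each sample (y axis, logarithmic) for the 3 groups, with the geometric mean as a bar. Tnfrsf19 to Lgr5 goes from at most 0.167 in MIN to at least 5.08 in Adenoma, and Lgr5 to Lgr4 is between 1.07 and 1.57 in MIN and Adenoma and at most 0.546 in Sulindac.

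Relatives and partners of the members did not follow them one for one. Of 16 such genes, 13 were tested in Adenoma over MIN, with a median log2 change of 0.19. Of these, 4 rose (Prom2, Smoc1, Olfm2 and Rnf2) and 3 fell (Lrig3, Olfm1 and Lgr4). That is 30.8% and 23.1%, against 18.5% and 20.1% of all genes tested. Prom2, the paralog of Prom1, was at 5, 3 and 4 counts in the MIN samples and at 66.1, 78.5 and 65.5 CPM in the Adenoma samples. Its pooled rate in Adenoma was 727.9 times that in MIN (95% exact interval 416.5 to 1409, counting error only; edgeR adjusted p = 2.26e-08), where Prom1 itself had an interval of -0.27 to 0.36 on the log2 scale. In the Sulindac samples Prom2 was at 76.3 to 81.5 CPM.

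Lrig3, the paralog of Lrig1, showed the reverse. It stood at 35.6, 37.8 and 43.4 CPM in MIN, had 0 counts in every Adenoma sample and 1, 0 and 0 counts in the Sulindac samples. Against a floor of 3 counts in each library, it was at least 458.7-fold lower in Adenoma than in MIN (edgeR adjusted p = 4.73e-07). Lrig2 did not pass, with a log2 change of 0.19 in Adenoma over MIN. Smoc1, the paralog of Smoc2, rose by 3.24 (SE 0.25, edgeR adjusted p = 1.15e-05), with 1.12 to 2.16 CPM in MIN and 15.7 to 18 CPM in Adenoma, and had a log2 change of 0.03 from Adenoma to Sulindac.

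Lgr4, the broadly expressed R-spondin receptor of the same family as Lgr5, fell like it in Adenoma but rose in Sulindac. Lgr4 was at 167.9, 155.7 and 134.5 CPM in MIN, 81.8, 90 and 71.9 CPM in Adenoma and 134.0, 133.8 and 132.2 CPM in Sulindac. It fell by 0.91 from MIN to Adenoma (SE 0.13, edgeR adjusted p = 0.000396) and rose by 0.72 from Adenoma to Sulindac (SE 0.11, edgeR adjusted p = 0.00182). The second call was lost without Sulindac 1 or Sulindac 3, with changes of 0.71 and 0.73 (edgeR adjusted p = 0.0103 and 0.0108). The ratio of Lgr5 to Lgr4 counts accordingly ranged from 1.4 to 1.57 in MIN, 1.07 to 1.44 in Adenoma and 0.292 to 0.546 in Sulindac, the last below all others. Lgr6 was at no more than 4 counts in any sample.

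Msi2, the paralog of Msi1, ranged over 86.1 to 126.3 CPM in the MIN samples, 109.8 to 152.1 CPM in the Adenoma samples and 109.2 to 115.7 CPM in the Sulindac samples and passed in no comparison, and the ratio of Msi2 to Msi1 counts was between 5.64 and 10.7 in MIN, 24.4 and 55.8 in Adenoma and 91.4 and 218.5 in Sulindac. Among the Polycomb partners of Bmi1, Rnf2 rose by 0.76 in Adenoma over MIN (SE 0.11, edgeR adjusted p = 0.000392), and Ring1 and Pcgf2 had changes of 0.42 and -0.16 that did not pass. In Sulindac over Adenoma, 11 of these relatives were tested, with a median of 0.00. Lgr4 rose (9.09%) and Olfm2 and Cdca7l fell (18.2%), against 8.32% and 9.1% of all genes. Leaving out a sample gave 1 (Adenoma 1, Adenoma 2, Sulindac 1 or Sulindac 3) to 4 (Adenoma 3) lower. Cdca7l, the paralog of Cdca7, fell by 0.82 in this comparison (SE 0.15, edgeR adjusted p = 0.00414), where Cdca7 had a change of -0.10. The call of Cdca7l was lost without Adenoma 1, Adenoma 2, Sulindac 1 or Sulindac 3 (edgeR adjusted p = 0.0121, 0.0147, 0.0197 and 0.021).

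**Figure D4:**
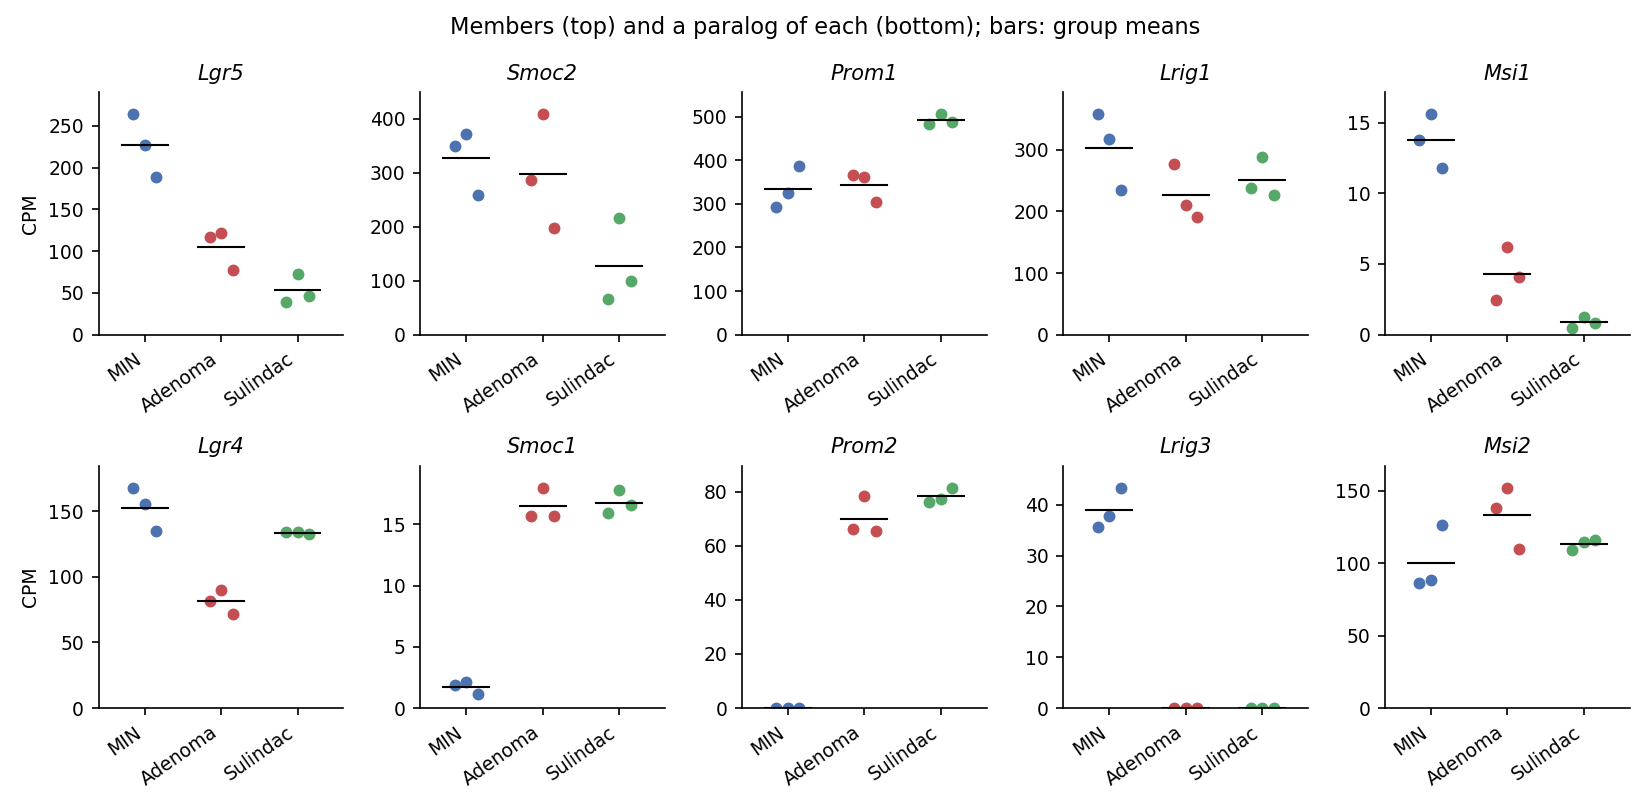
CPM (y axes, linear from 0) of 5 stem cell genes (top) and a paralog of each (bottom) in the 3 samples of each group, with group means as bars. Prom2 goes from 0.122 CPM or less in MIN to at least 65.5 CPM in Adenoma and Sulindac, Lrig3 goes from at least 35.6 CPM to 0.0333 CPM or less, and Lgr4 is at 132.2 to 134.0 CPM in Sulindac where Lgr5 is at most 73.1 CPM.

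Beyond the members, 27 further genes known from crypt base stem cells also moved in both directions. 4 of them, Axin2, Rnf43, Znrf3 and Sp5, are also among the 14 Wnt genes below, and all 4 rose in Adenoma over MIN. In Adenoma over MIN, 26 were tested, 11 rose (42.3%) and 7 fell (26.9%), with a median log2 change of -0.02. Of all genes tested, 18.5% rose and 20.1% fell, so movement in both directions was not particular to this list. Among those that fell, the water channel Aqp4 held 191.0, 217.0 and 159.9 CPM in MIN and 17, 22 and 4 counts (0.477, 0.615 and 0.116 CPM) in Adenoma (rate ratio 472.3, 95% exact interval 350.5 to 652.8; edgeR adjusted p = 2.69e-07). The protocadherin Pcdh8 had 64 to 297 counts in the MIN samples and 0 in every Adenoma sample, at least 59.2-fold lower (edgeR adjusted p = 0.000391). Fstl1, a secreted follistatin-like protein, had 138 counts over the MIN samples and 2 over the Adenoma samples (rate ratio 58.7, 95% exact interval 15.9 to 489.4; edgeR adjusted p = 0.000583). Among those that rose were Axin2 and Rnf43, both Wnt feedback inhibitors, by 1.63 and 2.16 on the log2 scale, and the insulin-like growth factor binding protein Igfbp4 by 2.21 (SE 0.16, edgeR adjusted p = 8.76e-06).

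In Sulindac over Adenoma, 22 of these crypt base genes were tested, 2 rose (9.09%) and 7 fell (31.8%), with a median of -0.39. Of all genes tested, 8.32% rose and 9.1% fell. Leaving out a sample gave 5 (Sulindac 1 or Sulindac 3) to 8 (Adenoma 3) of the crypt base genes lower and 1 to 3 higher. DESeq2 called 3 of them higher and 10 lower, and edgeR with library size alone 1 and 9. Over all 12962 genes, DESeq2 called 1778 higher and 1766 lower, and library size alone 603 and 1983. The urea transporter Slc14a1 fell most, from 7.86, 19.4 and 5.78 CPM in Adenoma to 0.3, 1.56 and 0.873 CPM in Sulindac, by 3.58 on the log2 scale (SE 0.60, edgeR adjusted p = 0.00296). The chloride channel regulator Clca4 fell by 1.78 (SE 0.32, edgeR adjusted p = 0.00399), after a log2 change of -3.75 from MIN to Adenoma. The RNA-binding protein Mex3a and Igfbp4 fell by 1.60 and 1.13 after rising in Adenoma. The potassium channel Kcnq1 and the cholesterol esterifying enzyme Soat1 rose, by 0.84 and 0.89. The call of Slc14a1 was lost without Sulindac 1 or Sulindac 3 (edgeR adjusted p = 0.0103 and 0.0185), and its size was -2.88 without Adenoma 2 and -4.18 without Sulindac 2. The call of Clca4 was lost without Adenoma 2, Sulindac 1, Sulindac 2 or Sulindac 3 (edgeR adjusted p = 0.0119, 0.0166, 0.0113 and 0.0179), and that of Soat1 without Adenoma 2, Sulindac 2 or Sulindac 3 (edgeR adjusted p = 0.012, 0.0138 and 0.0174). In Sulindac over MIN, 10 rose and 10 fell of 26 tested (38.5% each), with a median of -0.09, against 23% and 26.8% of all genes.

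The 5 other genes listed for reserve (+4) stem cells were split in Adenoma over MIN, where 18.5% of all genes rose and 20.1% fell. Of the 5, 4 were tested. Hopx and Tert, the telomerase catalytic subunit, rose by 0.86 and 0.95 (edgeR adjusted p = 0.000412 and 0.00246). The Notch ligand Dll1 and the keratin Krt19 fell by 2.31 and 1.42 (edgeR adjusted p = 5.84e-06 and 0.00131). Dll1 lay between 22.1 and 27.6 CPM in MIN, between 4.31 and 5.39 CPM in Adenoma and between 1.57 and 2.17 CPM in Sulindac, with a log2 change of -1.44 at the second step (SE 0.21, edgeR adjusted p = 0.0017), and was the only one of the 4 to pass in Sulindac over Adenoma. That call was lost without Sulindac 1 or Sulindac 3 (edgeR adjusted p = 0.0102 and 0.0118).

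Wnt target and feedback genes moved almost wholly in 1 direction. Of 14, all tested, 13 rose in Adenoma over MIN, with a median log2 change of 2.80, where 18.5% of all genes rose. None fell by edgeR, by DESeq2 or at an unadjusted p under 0.05, and the gene that did not rise was Myc at -0.10. The list was chosen with earlier results of these data known, so its shared direction stands as a description. Notum, a secreted enzyme that inactivates Wnt, held 0.608, 0.812 and 0.681 CPM in MIN and 274.9, 392.8 and 394.0 CPM in Adenoma (log2 change 8.97, SE 0.23, edgeR adjusted p = 3.87e-08). Nkd1 and Wif1, both Wnt inhibitors, rose by 8.15 and 7.97. Over the same comparison Lgr5 and Olfm4 fell while Tnfrsf19 and Ascl2 rose. In Sulindac over Adenoma, 6 of the 14 fell, with a median of -0.60, where 9.1% of all genes fell. None rose by edgeR or DESeq2, and 1 was higher at an unadjusted p under 0.05. Wif1 had a log2 change of -3.65 and Dkk3, a secreted protein of the Dkk family, one of -3.05. Leaving out a sample gave 2 (Sulindac 3) to 6 genes lower, the call of Wif1 was lost without Adenoma 3 or Sulindac 3 (edgeR adjusted p = 0.0102 and 0.0117), and that of Dkk3 without Adenoma 2, Sulindac 1, Sulindac 2 or Sulindac 3 (edgeR adjusted p = 0.0139, 0.0128, 0.0191 and 0.0223). In Sulindac over MIN, 12 of 13 tested were higher, against 23% of all genes.

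Genes of the fetal-like or revival state, which replaces the adult stem cell program in regenerating and some tumor epithelium, were also followed. Of 8 listed, 6 were tested in Adenoma over MIN, 4 rose and none fell by edgeR or DESeq2, with a median of 2.51. Of all genes tested, 18.5% rose, and this list too was chosen with earlier results of these data known. The surface protein gene Msln rose by 3.12 (SE 0.28, edgeR adjusted p = 2.86e-05) and the annexin gene Anxa1 by 2.82 (SE 0.62, edgeR adjusted p = 0.00498). MIN 3 stood apart in this list: Anxa1 was at 13.5, 14.5 and 74.1 CPM in the MIN samples, and the sum of the list ranged from 106.1 to 351.5 CPM in MIN. Without MIN 3, Anxa1 rose by 4.09 and 6 genes of the list passed. Leaving out MIN 1, MIN 2, Adenoma 1, Adenoma 2 or Adenoma 3 ended the call of Anxa1, with edgeR adjusted p-values of 0.0105, 0.0133, 0.0411, 0.0259 and 0.0256, and left 3 genes that passed. None of the 6 passed edgeR's test in Sulindac over Adenoma, with a median of -0.09, while DESeq2 called 2 higher, and 2 were higher and 1 lower at an unadjusted p under 0.05.

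**Figure D5:**
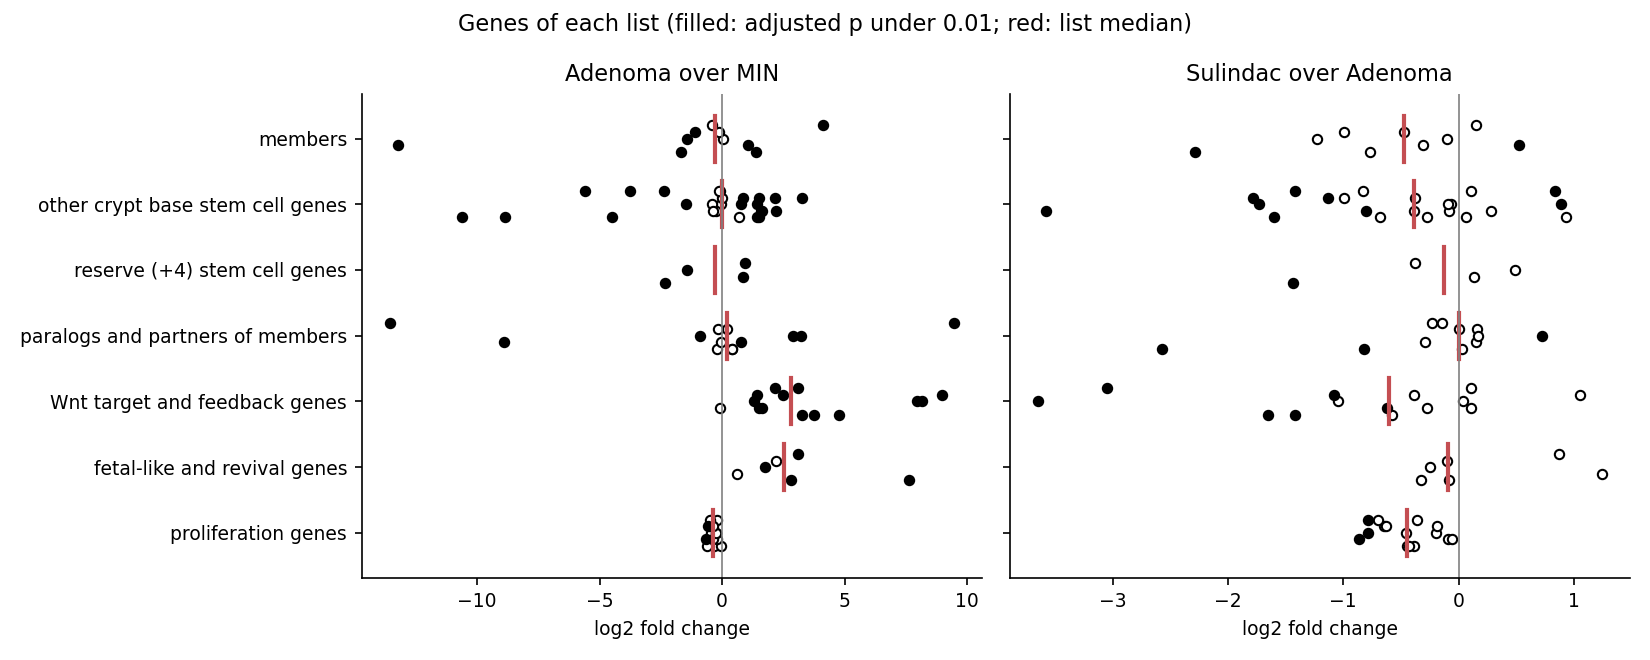
Log2 fold changes (x axes) of the tested stem cell genes and of the genes of 6 related lists, 1 point per gene, filled where the edgeR adjusted p was under 0.01, with the list median in red. Stem cell genes lie on both sides of 0 with medians of -0.28 and -0.47, whereas Wnt target genes have medians of 2.80 in Adenoma over MIN and -0.60 in Sulindac over Adenoma. Points of genes with few counts on 1 side, such as Olfm4, Lrig3 and Pcdh8, depend on the prior count of the fit. The members and lists were chosen with earlier results of these data known.

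The cells around the stem cells moved as well, and their part in the changes of the stem cell genes was not tested. All 12 enterocyte genes, all 8 goblet genes and all 8 enteroendocrine genes fell in Adenoma over MIN, where 20.1% of all genes fell. Leaving out a sample kept all 12 enterocyte genes lower and gave 7 or 8 goblet and 7 or 8 enteroendocrine genes lower. Library size alone gave 7 goblet genes lower. Enterocyte genes summed to 5360 to 8905 CPM in MIN samples and 261.0 to 297.8 CPM in Adenoma samples. Goblet genes summed to 1859 to 2084 CPM and 128.7 to 233.6 CPM, and enteroendocrine genes to 305.4 to 560.0 CPM and 2.39 to 4.25 CPM. Of 8 Paneth genes 6 fell and 2 rose (Mmp7 and Pla2g2a), and they summed to 15643 to 18673 CPM in MIN samples, 965.5 to 1433 CPM in Adenoma samples and 187.9 to 282.9 CPM in Sulindac samples. Against Adenoma, 7 of the 8 fell in Sulindac, and between 3 (without any 1 Sulindac sample) and 8 (without Adenoma 1) when a sample was left out. Of 6 tuft genes 4 were tested, with 1 higher and 2 lower. Without MIN 1, MIN 2, Adenoma 2 or Adenoma 3, no tuft gene was called higher. Of the 5 epithelial genes 3 fell, Krt8, Cdx2 and Cdh1. Of the leukocyte genes only Lyz2 was tested and fell, at 0.42 CPM in MIN, and of the 5 stromal and endothelial genes tested Pdgfra and Des rose to 0.866 and 0.542 CPM and Pecam1 fell, a call lost without MIN 3, Adenoma 1, Adenoma 2 or Adenoma 3 (edgeR adjusted p = 0.0105, 0.0175, 0.01 and 0.013). Of 15 proliferation genes 2 fell in Adenoma over MIN (Birc5 and Ccna2), 3 fell in Sulindac over Adenoma (Mcm2, Mcm3 and Tyms) and 14 fell in Sulindac over MIN, with medians of -0.38, -0.45 and -0.81. None was higher by edgeR, by DESeq2 or at an unadjusted p under 0.05. Of all genes tested, edgeR called 20.1%, 9.1% and 26.8% lower in the same comparisons. DESeq2 called 5, 7 and 15 of the proliferation genes lower in these comparisons, and edgeR with library size alone 0, 8 and 15. Over all genes, DESeq2 called 3242 of 13744, 1766 of 12962 and 3969 of 13551 lower, and library size alone 2282, 1983 and 3706. Blocking by replicate number gave 7 proliferation genes lower in Adenoma over MIN, where leaving out a sample gave 0 (MIN 1 or MIN 2) to 5 (MIN 3). In Sulindac over Adenoma, leaving out a sample gave 1 (Adenoma 2, Sulindac 1 or Sulindac 3) to 9 (Adenoma 3).

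The genes nearest to Lgr5, Ascl2 and Olfm4 in pattern were found by the root mean square difference of centered log2 levels over the 9 samples, among 12186 genes with a mean of at least 1 CPM. Nearest to Lgr5 were Fbln1 (0.177), Txndc16 (0.181), 2810417H13Rik (0.189), Pde3b (0.230) and Dock8 (0.243). The matrix protein gene Fbln1, for example, had means of 95.5, 42.5 and 22.2 CPM in MIN, Adenoma and Sulindac. Nearest to Ascl2 were Nxn (0.235), Zfp93 (0.250), Dmwd (0.252), Rab13 (0.261) and Oscp1 (0.267). Nearest to Olfm4 were Apoa4 (0.330), the urea cycle enzyme Cps1 (0.338), Xist (0.558), Fabp1 (0.593) and Dmbt1 (0.702), each at a mean of 571.3 CPM or more in MIN and under 1 CPM in both adenoma groups. Among the members themselves, Cdca7 was the nearest to Lgr5 (0.443), with 185 other genes closer, and Bmi1 the nearest to Ascl2 (0.363), with 90 closer.

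Xist, the RNA that coats the inactive X chromosome of female cells, was also measured, after it appeared among the genes nearest to Olfm4. It had 72597, 75080 and 103702 counts in the MIN samples and 11 to 59 counts in each of the other 6 samples. The Y-linked genes Ddx3y, Eif2s3y, Kdm5d and Uty were at no more than 15 counts in any sample. The MIN and adenoma cultures thus differed in Xist as well as in tissue of origin, and its part in the results was not tested.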

How the data were processed

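Total RNA of the 9 organoid samples was sequenced, and the deposited values are raw counts per gene symbol. The submitters' processing notes name Bowtie2 2.2.4, RSEM and mouse build mm9, with no role or order, and the annotation is not given in the sources used here. The authors deposited 3 count columns for MIN 1, and the third, which equals the first and second added up in each of the 23955 rows, was used. 27 symbols had become dates. The members and lists were chosen with earlier results of these data known. Each comparison was fitted on its 6 samples with edgeR 4.0.16 in R 4.3.3 (filterByExpr, TMM, robust quasi-likelihood, Benjamini-Hochberg adjustment over all genes tested, threshold 1%). For MIN and Adenoma samples that share a replicate number, deviations from the group means correlated over genes at 0.125, 0.112 and 0.192. Unlike numbers gave -0.149 to 0.069, so the numbers may mark pairs, which the labels do not state. The values given come from the fit without replicate number as a block. With the block, no member's call changed in Adenoma over MIN. Counts of some lists did change with it, such as proliferation genes lower, from 2 to 7, and fetal-like genes higher, from 4 to 5. Genes named beside the members were the 3 largest changes per list in Adenoma over MIN and the 2 largest in Sulindac over Adenoma that passed. Leaving samples out for the listed genes was added after the values were seen. 1 gene that this rule names is not reported here. Lineage lists are given by counts and sums. Other genes, chiefly the paralogs, Hells, Axin2, Rnf43, Igfbp4, Mex3a, Kcnq1, Soat1, Hopx, Xist and the Y-linked genes, were picked for the text after their values were seen. Rate ratios carry exact 95% intervals that cover counting error only. Lengths and shared 50-base stretches came from GENCODE M21 (another build than the counts), promoter windows from RefSeq. In simulated data the Adenoma over MIN fit recovered 51.9% of 108 2-fold and 84.8% of 92 4-fold changes among 13589 genes. The Sulindac over Adenoma fit recovered 69.7% of 99 and 90.1% of 101 among 12828 genes. Far fewer genes were changed there than were called in the data, so these shares do not give the recovery in the data.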

Additional observations from a re-analysis of the deposited data

How the results depend on the processing

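In Adenoma over MIN and in Sulindac over MIN, the counts of members called higher and lower stayed within 1.5 times the values given under every alternative run (other size factors, no or a stricter low-count filter, 1 fit of all 9 samples, replicate block, DESeq2, a 5% threshold, no robust estimation, leaving out each sample). In Sulindac over Adenoma they did not. The 1 member higher became 0 with library size alone and with the replicate block, and 0 to 1 when a sample was left out. The 1 member lower became 2 with library size alone and with 1 fit of all 9 samples, 3 with the replicate block and with DESeq2, 4 at a 5% threshold, and 0 to 1 when a sample was left out. The cause was not tested. Library size alone moved the median log2 change of all genes to 0.125 in Adenoma over MIN and to -0.180 in Sulindac over Adenoma, and in the latter it turned 1078 genes higher and 1179 lower into 603 and 1983. Over all genes this comparison gave 1778 higher and 1766 lower with DESeq2, 2034 and 2374 at a 5% threshold, and as few as 423 and 386 when a sample was left out (Sulindac 3). With library size alone, Smoc2 in Adenoma over MIN became 0.008 and Lrig1 in Sulindac over Adenoma -0.016. Uncalled changes also crossed 0 when a sample was left out: Smoc2 (-0.430 to 0.094) and Prom1 (-0.056 to 0.155) in Adenoma over MIN and Cdca7 (-0.268 to 0.104) in Sulindac over Adenoma. Same-numbered Adenoma and Sulindac samples correlated at 0.253, 0.208 and -0.074, and MIN and Sulindac samples at -0.030, 0.396 and 0.252. Each set held a value below 0, so pairing is unclear here. As in Adenoma over MIN, the values given come from the fit without replicate number as a block. With the block, Sulindac over Adenoma lost Prom1 as higher (0.53, edgeR adjusted p = 0.0166) and had Lgr5 and Smoc2 as lower besides Msi1. In Sulindac over MIN, the block gave Ascl2 as higher (0.58, edgeR adjusted p = 0.0028) and Smoc2 as lower (-1.52, edgeR adjusted p = 0.00738). With 3 samples a group, between 51.9% and 69.7% of simulated 2-fold changes were recovered at this threshold. The simulations changed far fewer genes than were called in the data (99 to 108 by 2-fold), so the recovery in the data may differ.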
